A study of Mus musculus with 4 samples.

Results

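Heat shock chaperones are proteins that help other proteins fold, keep damaged ones from clumping and hand those beyond repair to the proteasome. The 10 genes described here were taken by symbol from the 24972 gene rows of the deposited table, and all 10 were found: the inducible Hsp70 genes Hspa1a and Hspa1b, the constitutive Hsp70 gene Hspa8, the Hsp70 partners Dnajb1, Hsph1 and Bag3, the small heat shock gene Hspb1, the cytosolic Hsp90 gene Hsp90aa1, and the mitochondrial chaperonin pair Hspd1 and Hspe1. They were read as a possible sign of stress or handling of the tissue, library by library.

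The tissue was the mandibular dental arch, where the lower teeth form, taken from mouse embryos at embryonic day 17.5. There were 2 libraries of genotype Ascl5WTWT (wild type, libraries 15 and 20) and 2 of genotype Ascl5MutMut (homozygous mutant, libraries 18 and 14). Ascl5 is a gene for a helix-loop-helix factor that binds DNA, and the study compares the developing lower jaw with and without a variant of it. No source used here gives the strain, the change that the variant makes, or whether a library holds 1 embryo or a pool. Nor do the labels say that libraries of 1 genotype came from separate embryos, so p-values reflect only the spread among these 4 samples, some of which may be technical.

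In unstressed cells Hsp70 and Hsp90 hold heat shock factor 1 inactive. Heat, oxidation, injury or a load of misfolded protein draws the chaperones away, and the freed factor binds heat shock elements, which are repeats of the letters GAA in alternating orientation, and switches on chaperone genes within minutes. Hspa1a, Hspa1b, Hspb1 and Dnajb1 are textbook targets of this switch, whereas Hspa8, Hsp90aa1 and the chaperonin pair are also made in large amounts by unstressed, growing cells. Dissection itself can set off the response, which is why these genes are often read as a mark of handling.

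Promoter stretches are shown for the 3 members whose genotypes did not overlap, because 2 of them are nearly the same gene and because all 3 hold the letters of a pair of heat shock units. They are the 250 bases before the RefSeq start (build GRCm38.p6), 5′ to 3′ on the strand of the gene, for Hspa1a at chr17:34972157-34972406 (minus strand), Hspa1b at chr17:34959239-34959488 (minus strand) and Hspb1 at chr5:135887669-135887918 (plus strand). Capitals mark the pair GAANNTTC, in which N is any base.

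Hspa1a: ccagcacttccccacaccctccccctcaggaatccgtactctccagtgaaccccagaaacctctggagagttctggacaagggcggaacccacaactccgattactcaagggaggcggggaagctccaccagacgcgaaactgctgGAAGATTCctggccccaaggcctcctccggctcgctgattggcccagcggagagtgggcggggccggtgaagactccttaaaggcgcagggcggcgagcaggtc
Hspa1b: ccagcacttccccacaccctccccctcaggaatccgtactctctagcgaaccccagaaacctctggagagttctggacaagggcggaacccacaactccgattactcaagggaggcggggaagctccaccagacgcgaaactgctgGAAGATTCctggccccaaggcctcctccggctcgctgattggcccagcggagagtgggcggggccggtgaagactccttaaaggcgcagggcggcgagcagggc
Hspb1: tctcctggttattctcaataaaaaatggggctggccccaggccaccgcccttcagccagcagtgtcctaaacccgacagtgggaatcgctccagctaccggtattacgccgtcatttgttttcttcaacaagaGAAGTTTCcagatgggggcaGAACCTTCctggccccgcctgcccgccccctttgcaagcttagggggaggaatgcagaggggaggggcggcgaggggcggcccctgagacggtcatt

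The Hspa1a and Hspa1b stretches were identical at 247 of 250 bases, and in both the pair began 104 bases before the start. Hspb1 held 2 such pairs, beginning 117 and 97 bases before its start. The fullest element among the members lay before Hspe1 and inside the annotated span of Hspd1, at chr1:55088053-55088082 (plus strand, reading towards Hspe1). These divergent genes overlap at their starts and share 1 promoter region. In the element 4 units follow each other and are marked, with the bases between them, by capitals. All 30 bases lie in an annotated exon:
Hspe1: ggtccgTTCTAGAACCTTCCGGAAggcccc

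Either form of the pair, GAANNTTC or TTCNNGAA, each of which reads the same on both strands, was present in 12.8% of the 32851 promoter stretches of this length in the RefSeq table. A run of 3 units (GAANNTTCNNGAA on either strand, which contains both pairs) was present in 0.466% of them. The 8 members in the table had 11 stretches, and they are counted here by gene, whereas the shares above are by stretch. Of the 8, 6 held a pair in at least 1 stretch (Hspa1a, Hspa1b, Hspb1, Hsph1, Hspd1 and Hspe1). The other 2 held none in this window (Dnajb1 and Bag3). One Hspd1 stretch held no pair, and the other held the same element as Hspe1. Hspd1 and Hspe1 were the 2 members with 3 or more units. Hspa8 and Hsp90aa1 were the other two members. These matches describe letters, not binding.

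Values below are normalized counts in wild-type libraries 15 and 20, then mutant libraries 18 and 14, whose totals lay between 22134483 and 22578580. Genotype differences are mutant minus wild type on the log2(normalized count + 0.5) scale from limma, fitted across 17979 genes with Benjamini-Hochberg adjustment and a threshold of 0.05. None of the 10 members passed that threshold, beside 2 of all genes tested (0.0111%). At an unadjusted p under 0.05 there were 3 members, Hspa1a, Hspa1b and Hspb1, all higher in mutant, beside 3.12% of all genes tested that were higher at that level. That count of 3 became 2 with no filter on low values, and 0 with no mean-variance trend (unadjusted p = 0.0963, 0.0531 and 0.144 by limma). It was also 0 without wild type 15, without wild type 20 or without mutant 14, and stayed at 3 without mutant 18. An exact two-sided permutation test of 2 libraries against 2 cannot give a p below 0.333, so these tests rest on the spread shared across genes.

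Across the whole table, tooth and jaw markers were present in all 4 libraries, though not evenly. In dental mesenchyme, Msx1 had 1402 and 1999 in wild type against 1392 and 1313 in mutant. Barx1 had 955 and 1030 against 588 and 579. Sp7 of osteoblasts had 7047 and 7749 against 5521 and 4598. Of 7 dental mesenchyme markers, 5 were lower in mutant without overlap and 1 was higher on average. Of 6 osteoblast markers, 4 were lower without overlap and none was higher on average. No marker of either list passed the adjusted threshold by limma. The part of these markers in the levels of the members was not tested. Ascl5 was at 21.8 and 37.3 in wild type against 10.6 and 12.1 in mutant, a level that does not check the labels because what the variant does to the transcript is not given. Library 15 alone was rich in Xist, which coats the silenced X of female cells (38619 against 5.005 to 12.7). The sample titles give no sex, and by Xist the genotypes were not balanced for it. The part of sex in the levels of the members was not tested. Summed skin, salivary gland, neuron and erythroid markers were highest in mutant 14, with the values beside the results they touch.

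The inducible Hsp70 genes lay higher in both mutant libraries than in either wild-type library. Hspa1a (chromosome 17, 34969190 to 34972156), which encodes the Hsp70 that cells make on stress, had 232 and 224 normalized counts in wild type against 284 and 488 in mutant. Its near copy Hspa1b (chromosome 17, 34956436 to 34959238) had 566 and 545 in wild type against 752 and 1157 in mutant. In both genes the wild-type libraries were close together and mutant 14 stood well above mutant 18.

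The genotype difference was 0.71 (SE 0.27) for Hspa1a, with means of 228 ± 5.66 and 386 ± 145 (SD, n = 2 each; limma, adjusted p = 0.9999). For Hspa1b it was 0.75 (SE 0.21), with means of 556 ± 15.4 and 954 ± 286 (adjusted p = 0.695). Between the 2 mutant libraries alone, Hspa1a differed by 0.78 and Hspa1b by 0.62 on the same scale, about as much as between the genotypes, whereas the wild-type libraries differed by -0.05 and -0.06 (library 20 minus 15). Of the 12484 tested genes with a mean of at least 100, 3.48% had a larger gap between the mutant libraries than Hspa1a and 6.33% a larger one than Hspa1b, and 84.4% and 82.5% had a larger gap between the wild-type libraries.

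Because their transcripts share sequence, the 2 Hsp70 genes are not independent measurements. Of all stretches of 100 bases in the Hspa1a transcript, 56.5% also occur in another annotated transcript, Hspa1b among them, and for Hspa1b the share was 49.9%. Summed, they gave 798 and 769 in wild type against 1036 and 1645 in mutant, a difference of 0.74 (SE 0.22; limma, adjusted p = 0.745). Hspa1b made up between 70.3% and 72.6% of the sum in every library. How the authors' counting split shared reads is not given, so this proportion is not a separate measurement of each copy.

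**Figure D1:**
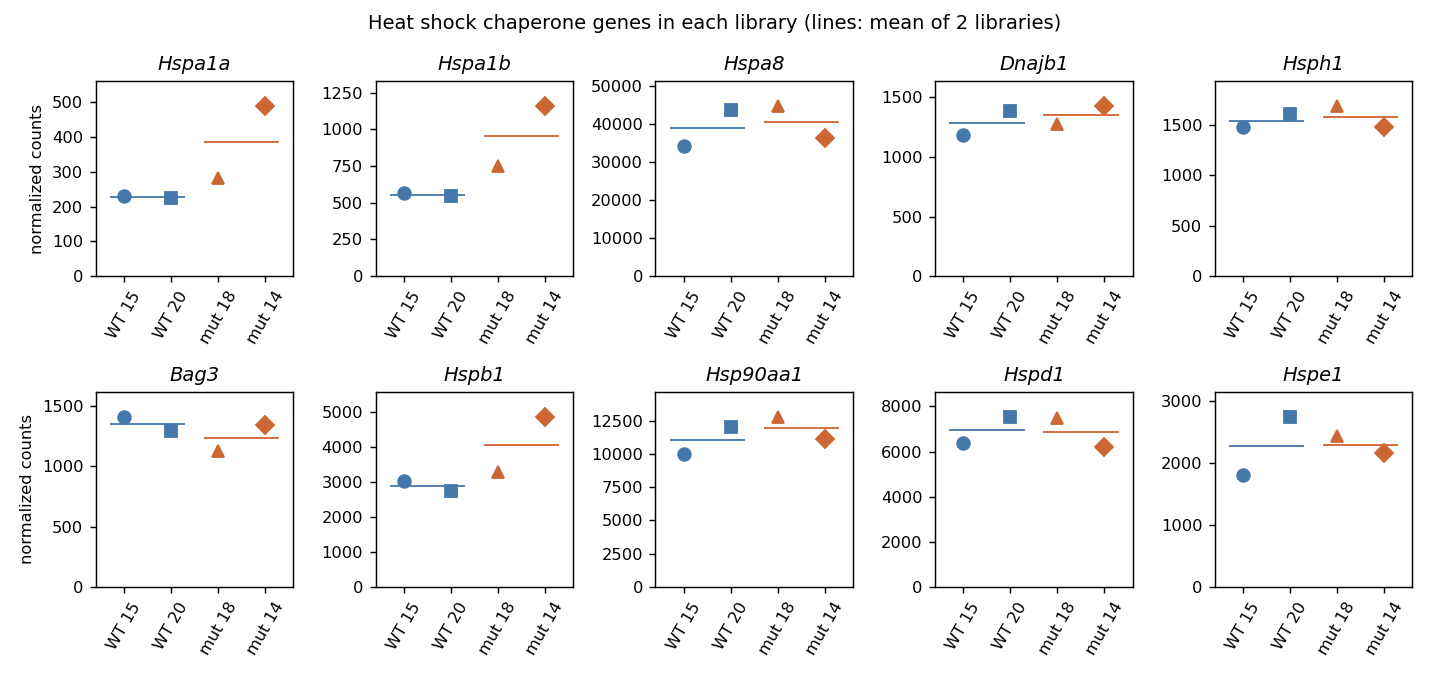
Normalized counts (y axis, from 0) of each of the 10 members in wild-type libraries 15 and 20 (blue) and mutant libraries 18 and 14 (orange); each point is 1 library and each line the mean of 2 libraries of a genotype. Hspa1a, Hspa1b and Hspb1 are higher in both mutant libraries than in either wild-type library, with mutant 14 highest, and the other 7 overlap.

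Hspb1 (chromosome 5, 135887919 to 135889563) encodes the small heat shock protein Hsp25, the mouse counterpart of HSP27, which holds unfolding proteins and steadies actin and keratin filaments. It had 3026 and 2745 normalized counts in wild type against 3277 and 4862 in mutant. The genotypes did not overlap, but mutant 18 lay only just above wild-type 15. The difference was 0.47 (SE 0.20; 2886 ± 199 and 4069 ± 1121, SD, n = 2 each; limma, adjusted p = 0.9999), smaller than the gap of 0.57 between the mutant libraries.

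These 3 genes were the only members without overlap between genotypes, all of them higher in mutant. Among all genes tested, 13.4% were higher in mutant without overlap (2407 genes, beside 2511 that were lower). Leaving out mutant 14 brought the differences to 0.32 for Hspa1a, 0.44 for Hspa1b and 0.18 for Hspb1, and leaving out mutant 18 brought them to 1.098, 1.06 and 0.75. Without wild-type 15, when all the libraries left are low in Xist, they were 0.73, 0.78 and 0.54, and no adjusted p passed in any of these fits.

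The 3 genes had the same order of libraries from high to low: mutant 14, mutant 18, wild type 15 and wild type 20. The share of all genes tested with this exact order was not counted. The summed level of 8 keratinocyte markers had this order too. Among the single markers, Krt14 and Krt5 had wild type 20 above mutant 18, and Perp had wild type 20 above wild type 15. The other markers had the order of the sum. That sum was 94594 and 87677 in wild type against 151323 and 232923 in mutant. All 8 markers were higher on average in mutant, 6 of them without overlap, and none was at 0. Ivl, a precursor of the cornified envelope of skin and oral lining, had 553 and 531 in wild type against 1078 and 1911 in mutant (adjusted p = 0.310 by limma). Hspb1 is itself abundant in maturing keratinocytes, and the part of the keratinocyte markers in these results was not tested. In bulk tissue a different number of cells of a type and a different amount of RNA per cell cannot be told apart.

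Summed salivary gland and neuron markers were also highest in mutant 14, as was the erythroid sum described below, which was nearly as high in wild type 15. The sum of 7 salivary gland markers was 66.6 and 75.3 in wild type, 90.6 in mutant 18 and 5042 in mutant 14, where 4219 came from Smgc, which like Dcpp2 was at 0 in wild type. The sum of 4 neuron markers was 989, 1171, 1054 and 1907 in the usual order. All 6 tested salivary markers and all 4 neuron markers were higher on average in mutant, and no neuron marker was at 0. Their part in the levels of the inducible chaperones was not tested.

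**Figure D2:**
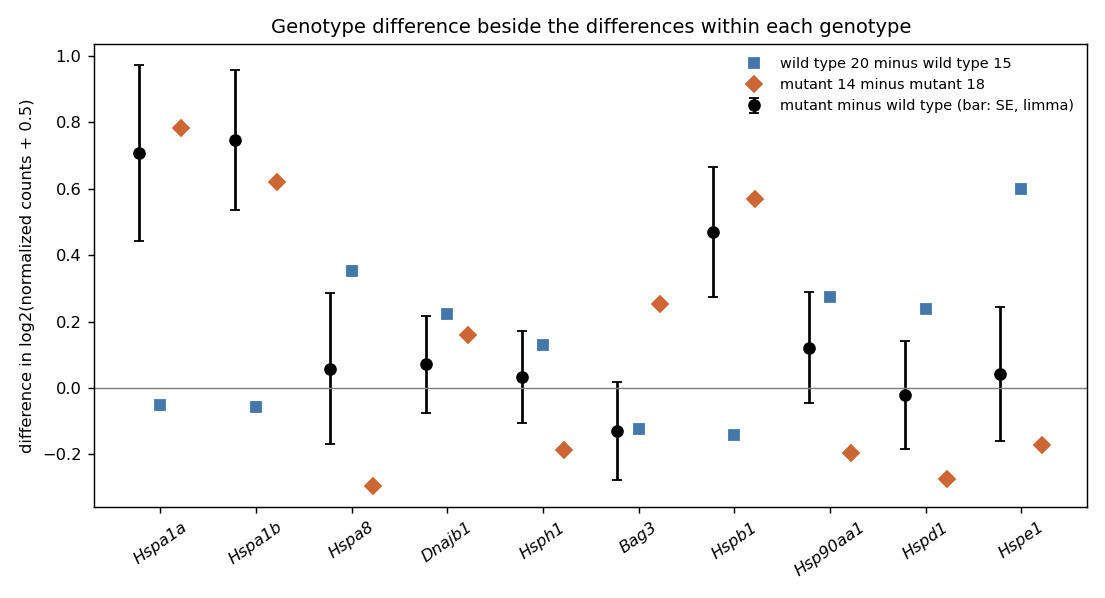
Difference in log2(normalized count + 0.5) (y axis) for each member: mutant minus wild type with its standard error from limma (black), wild-type library 20 minus 15 (blue) and mutant library 14 minus 18 (orange). For 9 of the 10 members the gap between the mutant libraries is larger than the genotype difference, the exception being Hspa1b.

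Hspa8 (chromosome 9, 40800984 to 40810087), the Hsp70 that unstressed cells use for folding, for uncoating clathrin vesicles and for selective autophagy, was the most abundant member and did not separate the genotypes. It had 34330 and 43829 normalized counts in wild type against 44726 and 36457 in mutant, where wild-type 15 and mutant 14 were the lower libraries. The genotype difference was 0.06 (SE 0.23; 39079 ± 6717 and 40591 ± 5847, SD, n = 2 each; limma, adjusted p = 0.9999). Within a genotype the gaps were larger, 0.35 between the wild-type libraries and -0.29 between the mutant libraries (14 minus 18).

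Hsp90aa1 (chromosome 12, 110690605 to 110702728) encodes the more stress-responsive of the cytosolic Hsp90 proteins, which finish the folding of kinases and steroid receptors. It had 9979 and 12063 in wild type against 12771 and 11155 in mutant, with a difference of 0.12 (SE 0.17; 11021 ± 1474 and 11963 ± 1143, SD, n = 2 each; limma, adjusted p = 0.9999). Its constitutive relative Hsp90ab1 had 34189, 31451, 29165 and 32137, a difference of -0.10, and the mitochondrial Hsp90 gene Trap1 was at -0.06, both without a call. Wild-type 15, the lowest library for Hsp90aa1, was the highest for Hsp90ab1.

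The chaperonin genes Hspd1 and Hspe1 stand head to head on chromosome 1 (55077835 to 55088243 and 55088132 to 55091307) and encode Hsp60 and its lid Hsp10, which fold proteins inside mitochondria. Hspd1 had 6377 and 7525 in wild type against 7506 and 6204 in mutant, and Hspe1 had 1805 and 2737 in wild type against 2427 and 2156 in mutant. Both had the fullest heat shock element of the members, and neither differed between genotypes beyond the spread, at -0.02 (SE 0.16) and 0.04 (SE 0.20; limma, adjusted p = 0.9999 for both).

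Although they share a promoter region, Hspd1 and Hspe1 did not keep a fixed ratio. There were between 2.75 (wild type 20) and 3.53 (wild type 15) normalized counts of Hspd1 for each of Hspe1. The wild-type gap of Hspe1, 0.60, was exceeded by 4.62% of tested genes with a mean of at least 100, and that of Hspd1, 0.24, by 37.4%.

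Of the partners of Hsp70, Hsph1 and Dnajb1 had the smallest fold between highest and lowest library of all 10 members. Hsph1 (Hsp110; chromosome 5, 149614287 to 149636376), which reloads Hsp70 with ATP and has no close copy among the annotated transcripts, had 1473 and 1610 in wild type against 1681 and 1477 in mutant (0.03, SE 0.14). Dnajb1 (chromosome 8, 83608193 to 83612653), the J-domain protein that hands substrates to Hsp70, had 1187 and 1386 in wild type against 1275 and 1423 in mutant (0.07, SE 0.15). Neither separated the genotypes (limma, adjusted p = 0.9999 for both).

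Bag3 (chromosome 7, 128523616 to 128546981), which joins Hsp70 to the small heat shock proteins and directs damaged muscle and cytoskeletal proteins to autophagy, had 1408 and 1293 in wild type against 1131 and 1346 in mutant. Of the 2 members lower on average in mutant, the other being Hspd1, it had the larger difference, at -0.13 (SE 0.15; limma, adjusted p = 0.9999), and that value came to -0.0035 without mutant 18. Dnajb1, Hsph1 and Bag3, also known heat shock targets, varied by 1.20-fold, 1.14-fold and 1.25-fold between the highest and the lowest library, against 2.18-fold for Hspa1a and 2.12-fold for Hspa1b.

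Over the 10 members, 8 were higher and 2 lower on average in mutant, with a median difference of 0.06, beside a median of 0.0025 over all genes tested. In 7 of the 10 the difference was within 1.1-fold either way. The gap between the wild-type libraries exceeded the genotype difference in 6 members and the gap between the mutant libraries did so in 9. Together the members made up 0.27% of all normalized counts in wild-type 15, 0.328% in wild-type 20, 0.337% in mutant 18 and 0.301% in mutant 14.

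No library was highest throughout. Mutant 14 was the highest of the 4 for 4 members (Hspa1a, Hspa1b, Hspb1 and Dnajb1), as it was for 25.9% of all genes tested. Mutant 18 was highest for 3 (Hspa8, Hsp90aa1 and Hsph1; 23.2% of all genes), wild-type 20 for 2 (Hspd1 and Hspe1; 24.3%) and wild-type 15 for 1 (Bag3; 26.6%). Wild-type 15 was the lowest library for 5 members.

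Hspa8, Hsp90aa1, Hsph1, Hspd1 and Hspe1 shared an order that crossed the genotypes. In all 5, wild-type 20 and mutant 18 both lay above wild-type 15 and mutant 14, as they did in 22.1% of all genes tested. The cytosolic chaperonin TRiC and its partner prefoldin, which fold actin and tubulin, had that order in 13 of 15 genes, with a sum of 45970 and 57493 in wild type against 56691 and 49568 in mutant. The sum of 5 erythroid markers, mainly globins, ran the other way, at 235808 and 101844 in wild type against 97594 and 245068 in mutant, with 3 markers higher and 2 lower on average in mutant and none at 0. The tooth epithelium and enamel sum had the order of these chaperones, at 4051 and 9785 in wild type against 7454 and 4314 in mutant. So did the osteoblast sum, at 106423 and 119843 against 113528 and 74097. By single gene, 3 of 6 tooth epithelium and 2 of 6 osteoblast markers had that order. The part of these marker sums in the order of the chaperones was not tested.

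**Figure D3:**
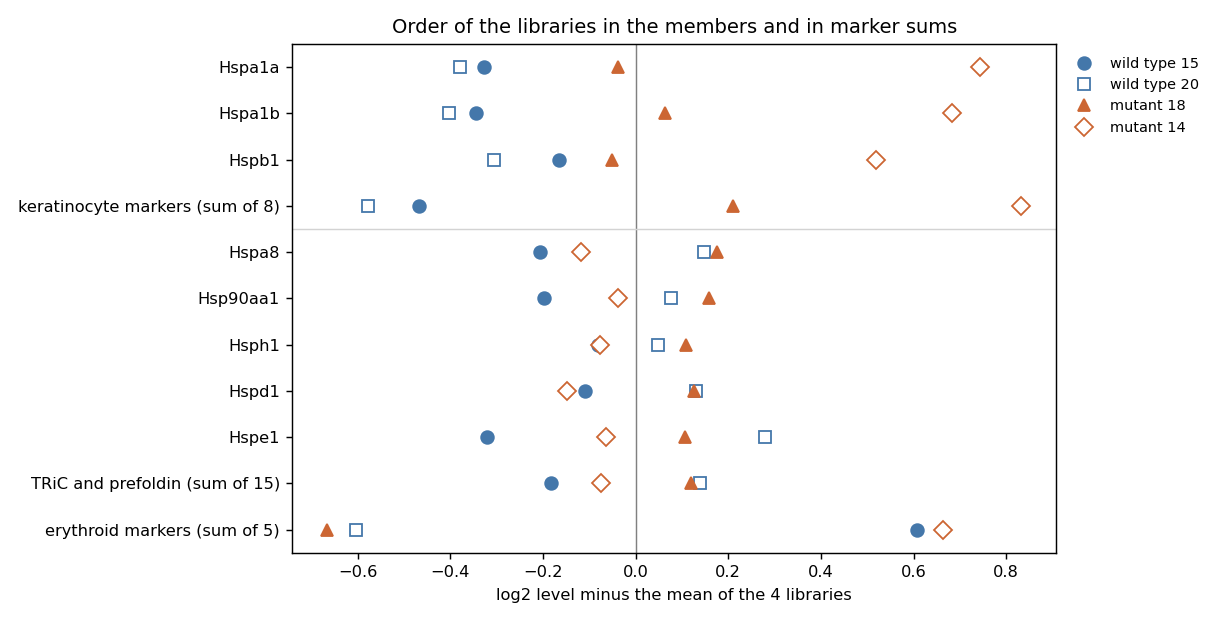
Log2 level minus the mean of the 4 libraries (x axis) for single members and for summed markers; each symbol is 1 library (blue wild type, orange mutant). In the upper rows the keratinocyte sum has the library order of Hspa1a, Hspa1b and Hspb1, and in the lower rows the erythroid sum is high in wild type 15 and mutant 14, the libraries in which Hspa8 and its companions are low. The tooth epithelium and enamel sum and the osteoblast sum, which are low in those libraries too, are not drawn.

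Per kilobase of the longest coding transcript, and averaged over the 4 libraries, Hspa8 had the highest level, 16640 normalized counts per kilobase, with its lowest library at 14340. Hspb1 (3739), Hsp90aa1 (3503), Hspe1 (2947) and Hspd1 (2849) followed, and the ranges over libraries of each neighbouring pair in that order overlapped. Bag3 (505), Dnajb1 (440) and Hsph1 (410) formed a lower tier whose neighbours overlapped likewise. Hspa1b (269) and Hspa1a (103) were lowest on average, with mutant 14 at 413 and 165 and the other libraries at 194 to 268 and 75.4 to 95.6. In mutant 14 Hspa1b thus lay above Hsph1, which was at 388 there.

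Some of these levels may carry reads that near copies or overlapping genes could share, since no source used here says how the authors' counting treated such reads. Stretches were matched on either strand. The share of stretches of 100 bases found in a transcript of another annotated gene was 63.4% for Hspa8, 47.5% for Hsp90aa1, 42.7% for Hspb1, 26.9% for Hspd1 and 22.4% for Hspe1. For Hspe1 one of the genes was Hspd1, which is not a copy but overlaps it on the other strand. It was 0 for Hsph1, Dnajb1 and Bag3.

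The other genes of the pathway, in lists drawn up by function and with none of the 10 members among them, gave no call. Heat shock factors and their regulators had 4 of 7 higher and 3 lower on average (median difference 0.04). Hsf1, the factor that drives the response, was at 858 and 796 in wild type against 737 and 836 in mutant, and Hsf2 at 642 and 665 and at 732 and 619. The members with the smallest p were Hsbp1l1 (0.92), Hsf4 (-0.73) and Hsf5 (-1.07), with at most 64.3 normalized counts in any library.

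Of the other Hsp70 and Hsp110 genes, 4 of 8 were higher and 4 lower (median difference 0.0013). Hspa12a, a distant Hsp70 relative, had 338 and 268 in wild type against 343 and 487 in mutant, Hspa1l, a gene beside Hspa1a, had 13.6 and 9.90 and then 14.3 and 23.4, and Hspa2, best known from sperm development, had 147 and 164 and then 138 and 128. Hspa12a and Hspa1l both had the library order of Hspa1a. Transcripts of Hspa1l share stretches of 100 bases with Hspa1a, and none of Hspa12a were found to. Among J-domain genes 12 of 20 tested were higher and 8 lower (median 0.01), with Dnajb13 (-1.62, at 4.20 or fewer normalized counts), Dnajb4 (0.24) and Dnajc2 (0.13) having the smallest p.

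Of the other small heat shock genes, many of which serve muscle, 5 of 8 tested were higher and 3 lower (median 0.10). None was highest in mutant 14, the library where Hspb1 was highest, and 5 of 8 were highest in mutant 18. The members with the smallest p were Hspb3 (0.27), Hspb7 (-0.25) and Hspb8 (0.15). The skeletal muscle markers were likewise highest in mutant 18 in 6 of 7 cases, with a sum of 137007 and 103098 in wild type against 156462 and 82713 in mutant, 5 higher and 2 lower on average and none at 0, and their part in the small heat shock genes was not tested.

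Cochaperones of Hsp70 and Hsp90 had 15 of 24 higher and 9 lower (median 0.01), within -0.12 to 0.18. Hikeshi, which carries Hsp70 into the nucleus on heat shock, was at 0.18, Chordc1 at 0.15, and Stip1, the bridge between Hsp70 and Hsp90, was at -0.10. Mitochondrial chaperones and proteases had 4 of 12 higher and 8 lower (median -0.03), the smallest p being those of Yme1l1 (0.15), Clpx (0.11) and the mitochondrial Hsp70 gene Hspa9 (-0.09). TRiC and prefoldin had 13 of 15 higher and 2 lower (median 0.04; Pfdn1 0.17, Pfdn5 0.14 and Cct5 0.09).

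Immediate early genes, which respond within minutes to dissection and other stimuli, had 14 of 24 higher and 10 lower on average in mutant (median 0.09), with no call by limma and 1 gene at an unadjusted p under 0.05, Klf2 (-0.43). Mutant 14 was the highest library for 15 of the 24 and mutant 18 for 0, beside 25.9% and 23.2% of all genes tested. Nr4a1, a nuclear receptor, had 648 and 568 in wild type against 448 and 504 in mutant, and Dusp1, a phosphatase that damps stress kinases, had 592 and 527 and then 621 and 757. Mutant 14 therefore held the highest values both of most immediate early genes and of the inducible Hsp70 genes. Mutant 18 was highest for no gene of either set. It was second to mutant 14 for Hspa1a and Hspa1b and for some immediate early genes, such as Fos and Dusp1. For others, such as Nr4a1, it was the lowest library. Mutant 14 was also highest for all 8 keratinocyte, all 4 neuron and all 6 tested salivary gland markers, and for 0 of the skeletal muscle and osteoblast markers. The part of such markers in the immediate early genes was not tested.

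**Figure D4:**
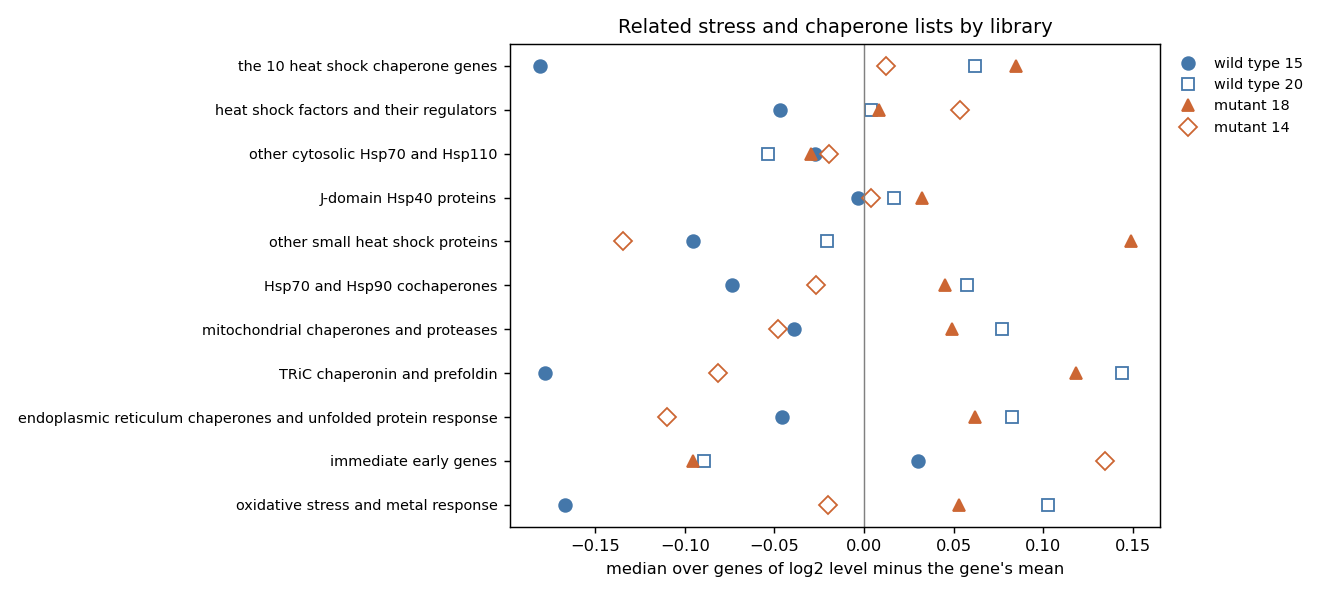
Lists of related genes (y axis) by the median over their genes of the log2 level minus the gene's mean over the 4 libraries (x axis), with 1 symbol per library. The median of the 10 members is lowest in wild-type 15 and the median of the immediate early genes is highest in mutant 14, though not every gene has that order.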

How the data were processed

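RNA was measured in 2 wild-type and 2 mutant libraries. The deposited table gives 1 signal value per gene and library, a normalized count that is not a whole number. Per the submitters' processing notes, DESeq2 and build mm10 were used. Aligner, counter, strand setting and annotation were not given in the sources used here. Libraries were grouped by the genotype in their titles, and their numbers, which the genotypes do not share, pair nothing.

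Values were taken as deposited. The 17979 genes averaging 1 or more were tested for genotype on log2(value + 0.5), using limma (version 3.58.1, R version 4.3.3) with a trend of variance on level, in code tested on simulated data. Count models planned for raw counts were not used. A gene overlaps between genotypes unless both mutant values lie on 1 side of both wild-type values. Alternatives changed the scaling (library totals or trimmed means of M values), pseudocount, filter, trend, weights, the Hsp70 copies and each library in turn. Coordinates and transcript lengths are from GENCODE M21 and promoters from RefSeq, both GRCm38, the assembly that mm10 denotes.

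The members and all gene lists were chosen with earlier results of these data known. Trap1 and Dnaja3 stand in 2 lists each. Named are the 10 members, Hsf1 and Hsf2, and the 3 genes of each other chaperone or stress list with the smallest p. Msx1, Barx1, Sp7, Ivl, Xist and Ascl5 are named as checks. Smgc and Dcpp2 are named for being at 0. Krt14, Krt5, Perp and Fos are named for their library order, seen in the values, and Xbp1 and Atf4 as examples of their list. These further marker lists had 0 calls as well: odontoblast (2 of 2 higher on average), endothelial (3 of 4 lower), tooth epithelium (4 of 6 lower) and dental mesenchyme (6 of 7 lower).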

Additional observations from a re-analysis of the deposited data

How the results depend on the processing

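None of the members passed the threshold under any of the 13 alternatives, and the smallest adjusted p of a member was 0.463. In the 9 alternatives with all libraries kept, each member value kept its direction. After dropping a library, which leaves 1 residual degree of freedom and assumes that the lone sample varies like the others, the direction turned in 6 members, all close to 0 at the start: the log2 difference ran from -0.041 to 0.18 for Dnajb1, -0.015 to 0.26 for Hsp90aa1, -0.12 to 0.23 for Hspa8, -0.16 to 0.12 for Hspd1, -0.26 to 0.34 for Hspe1 and -0.060 to 0.13 for Hsph1. The members' median ran from -0.036 (without wild type 15) to 0.246 (without wild type 20). The count over all genes, 2, was 4 with pseudocount 1, 1 with no filter, 1 without the trend and 0 with vooma weights (714 genes at an unadjusted p under 0.05), and ran from 0 to 5 with a library left out: 5 without wild type 20, and 0 without wild type 15, mutant 18 or mutant 14 (538, 1209 and 446 at an unadjusted p under 0.05). The cause was not tested, beyond the loss of a library. The planned count model was not run, since the values are not raw counts. No paired analysis was possible because the genotypes share no replicate number. Depth is given only as normalized totals, and counting error was not set apart.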

Other observations

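A list that joins chaperones of the endoplasmic reticulum, which fold secreted proteins such as collagen, with signalling and degradation genes of the unfolded protein response, such as Xbp1 and Atf4, had 19 of 25 genes lower and 6 higher on average in mutant (median difference -0.04), with no call. Serpinh1, the collagen chaperone Hsp47, had 45983 and 51186 normalized counts in wild type against 40780 and 36737 in mutant (-0.33, SE 0.21; limma, adjusted p = 0.9999), with no overlap between genotypes. The sum of 6 osteoblast markers, cells that secrete much collagen, was 106423 and 119843 in wild type against 113528 and 74097 in mutant, with 6 of 6 lower on average and none at 0, and its part in the Serpinh1 level was not tested. Creld2 had 673 and 806 and then 581 and 629, and Trib3, a target of the integrated stress response, had 44.5 and 43.9 and then 64.7 and 80.4.

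Genes of oxidative stress and metal response had 8 of 12 higher and 4 lower on average in mutant (median 0.04), with no call. Slc7a11, the cystine transporter that feeds glutathione synthesis, had 110 and 78.3 normalized counts in wild type against 140 and 283 in mutant (1.097, SE 0.36; limma, adjusted p = 0.901), which is the library order of Hspa1a. Hmox1, the haem-degrading enzyme, had 602 and 736 and then 835 and 818, and Prdx1 had 5752 and 8255 and then 8361 and 7104.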
